A study of Mus musculus with 12 samples.

Results

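The genes described here are 10 Kruppel-like factors, Klf2, Klf3, Klf4, Klf5, Klf6, Klf7, Klf9, Klf10, Klf13 and Klf15. They were taken by gene name from a table of 55414 genes, which holds 17 Kruppel-like factors in all. Their transcripts were measured by RNA-seq of lungs from 12 mice on a C57BL/6J background, all given 50 µg of lipopolysaccharide (LPS), a bacterial cell wall component that induces acute lung injury, and examined on day 4. Of these mice, 6 were IL-10 B-KO, which carry a floxed Il10 gene deleted by mb1-cre, a Cre that is active in the B cell lineage, and 6 were IL-10 B-WT, called control lungs in what follows, beside knockout lungs for the former. Whether the IL-10 B-WT mice carried the floxed allele or Cre, and the age of the mice, are not given in the sources used here. All 12 lungs had received LPS, so no lung shows the level of these factors before injury.

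Kruppel-like factors are transcription factors with C-terminal zinc fingers that bind GC-rich and CACCC sequences. Klf2 and Klf4 are induced in endothelium by laminar blood flow, where they maintain an anticoagulant and anti-inflammatory state, and Klf2 also keeps lymphocytes quiescent and restrains macrophage activation. Other members act in epithelium (Klf5), in the early response to injury and to TGF-beta (Klf6, Klf10), and downstream of glucocorticoids (Klf9, Klf15).

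Values are TPM, a transcript abundance in which the reads of a gene are divided by its length and every library is brought to the same total. Levels of different genes can therefore be set side by side, but the number of reads behind them is unknown. Genotypes were compared by limma on log2(TPM + 1), with p-values adjusted over the 15148 genes with at least 1 TPM in at least 6 libraries, and each member also by a two-sided exact permutation test over the 12 lungs. For genes of low TPM these fold changes come out too small. All 10 members passed the filter. Il10 itself was at 0.355 TPM in control and 0.282 TPM in knockout lungs on average (exact permutation test, p = 0.745) and did not separate the genotypes. It was at most at 0.88 TPM in any lung and did not pass the filter, so that this test cannot show whether the gene was deleted. The paper reports lower IL-10 in the lungs of the knockout mice after LPS. Defining markers of lung were present in both genotypes, among them Sftpc of alveolar type 2 cells at mean levels of 9470 and 11714 TPM. IL-10 B-WT replicate 1 stood apart from the other control lungs, with a summed level of 10 macrophage genes of 1842 TPM, against 97.5 to 528 TPM in the other 5. IL-10 B-WT replicate 2 also stood apart, with 15.4% of its TPM in immunoglobulin genes, against 0.248% to 2.19% in the other 5, and a summed level of 9 B cell genes of 838 TPM, against 71.6 to 129 TPM. In knockout lungs immunoglobulin genes took 0.00238% to 0.0652% of the TPM, below every control lung. In IL-10 B-WT replicate 5 the 7 genes of alveolar type 2 cells summed to 3314 TPM, against 8842 to 17229 TPM in the other 5, and 21380 genes were above 0, the fewest of the 12 libraries. The gene of highest TPM was mt-Atp8 in that library (11.2% of its TPM) and in IL-10 B-KO replicates 3, 4, 5 and 6 (1.71% to 5.88%). In the remaining libraries it was Scgb1a1. Across all genes, 79 (0.522%) had an adjusted p of at most 0.05 with all lungs and 761, 63 and 25 without IL-10 B-WT replicates 1, 2 and 5.

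Klf2, Klf4 and Klf10 had the smallest p-values of the 10 members, with estimates lower in knockout lungs for Klf2 and Klf4 and higher for Klf10, and none passed the adjusted threshold. Klf2 averaged 431 ± 128 TPM (SD, n = 6) in control and 225 ± 29.3 TPM (SD, n = 6) in knockout lungs. Klf4 averaged 109 ± 30.1 TPM and 65.6 ± 8.79 TPM, and Klf10 averaged 26.8 ± 4.85 TPM and 43.9 ± 8.06 TPM (SD, n = 6 each). These 3 of the 10 members, 2 lower and 1 higher, had an unadjusted limma p of at most 0.05, a threshold that 12.5% of all genes tested reached (5.71% lower and 6.83% higher). None of the 10 passed an adjusted p of 0.05 in limma, and 2 of them, Klf2 and Klf10, had an adjusted p of at most 0.1, against 1.04% of all genes. Array quality weights give the more variable libraries less influence. With them Klf2, Klf4, Klf10 and Klf15 passed an adjusted p of 0.05 (limma, 0.00966, 0.0156, 0.0458 and 0.0365), among 669 genes in all. By estimate 5 members were lower and 5 higher, against 36.8% and 63.2% of all genes, with a median log2 fold change of -0.14 against 0.10 over all genes tested, and the sign of Klf5 and Klf6, both at 0.03, turned under 5 other scalings or weightings. With 1 lung left out, both turned sign for IL-10 B-WT replicate 5 (-0.089 and -0.080, where the median of all genes was -0.019) or knockout replicate 3 (-0.041 and -0.059), Klf5 also for knockout replicate 2 (-0.076) and Klf6 for knockout replicate 5 (-0.10). When IL-10 B-WT replicate 1 was omitted, Klf2, Klf4 and Klf10 passed the adjusted threshold and 7 members reached an unadjusted p of 0.05 or less, where 25.2% of all genes did. Without IL-10 B-WT replicate 2, 0 members passed the adjusted threshold in limma and 4 reached the unadjusted one, where 10.7% of all genes did, and the log2 fold changes of Klf2, Klf4 and Klf10 were -0.89, -0.72 and 0.64.

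**Figure D1:**
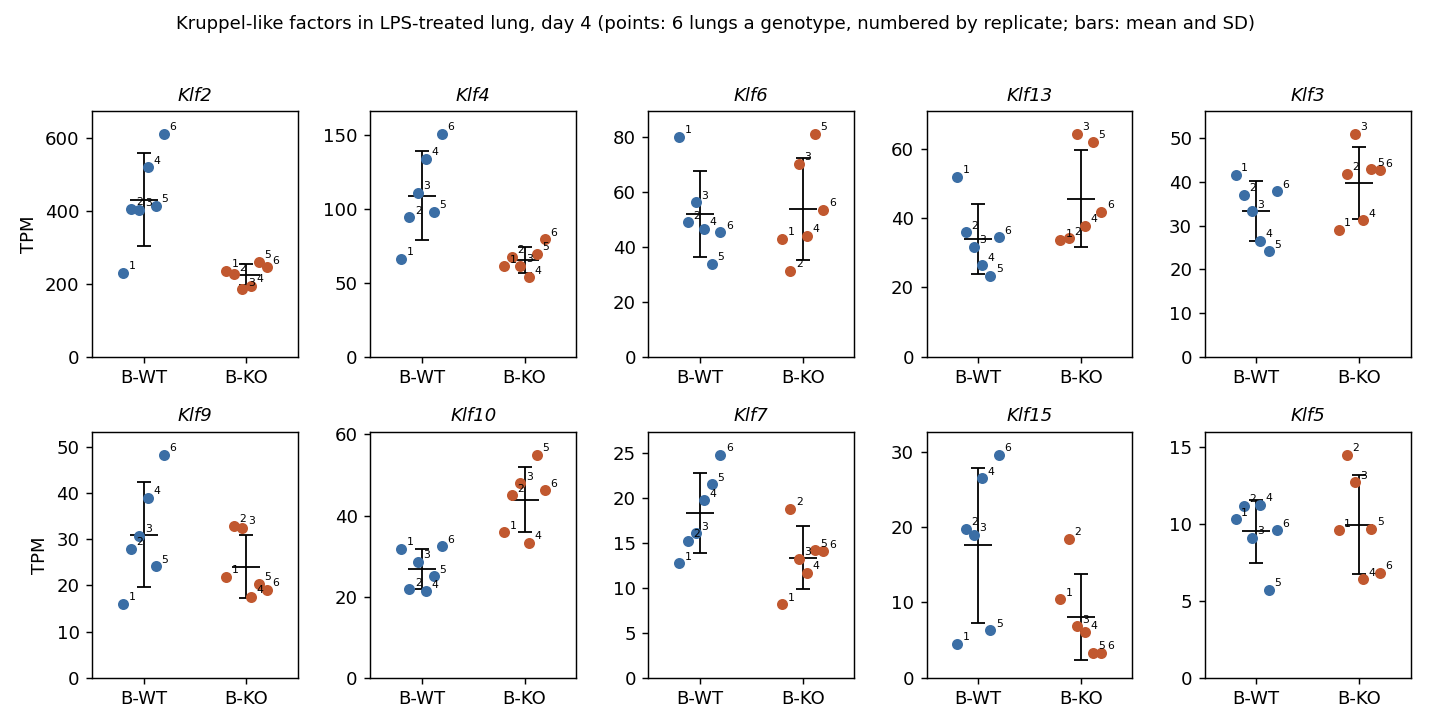
Level of the 10 Kruppel-like factors in each lung, in TPM on linear axes that start at 0. Points are lungs numbered by replicate, and bars are the mean and SD of 6 lungs. Klf2 and Klf4 lie higher in 5 of 6 IL-10 B-WT lungs than in any IL-10 B-KO lung, and all 6 IL-10 B-KO lungs lie above all IL-10 B-WT lungs for Klf10.

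The promoters of Klf2 and Klf4 are shown because these genes varied together across lungs (described with their levels). The sequences are from RefSeq on GRCm38.p6, end just before the transcribed region, and read 5′ to 3′ on the strand of the gene. Klf2 (ENSMUSG00000055148) lies at chr8:72319033-72321656 on the plus strand and has 3 exons, and the 221 bases shown are chr8:72318812-72319032. Klf4 (ENSMUSG00000003032) lies at chr4:55527143-55532466 on the minus strand and has 5 exons, and the 250 bases shown are chr4:55532476-55532725. Capitals mark GC boxes (GGGCGG, either strand) and, in Klf2, a match to the MEF2 site, the word bound by the MEF2 factors through which flow induces Klf2.
Klf2: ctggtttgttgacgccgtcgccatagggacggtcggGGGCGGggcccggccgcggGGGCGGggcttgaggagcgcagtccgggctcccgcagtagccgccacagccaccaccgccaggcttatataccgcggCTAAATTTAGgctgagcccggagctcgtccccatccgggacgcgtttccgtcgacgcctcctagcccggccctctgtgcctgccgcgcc
Klf4: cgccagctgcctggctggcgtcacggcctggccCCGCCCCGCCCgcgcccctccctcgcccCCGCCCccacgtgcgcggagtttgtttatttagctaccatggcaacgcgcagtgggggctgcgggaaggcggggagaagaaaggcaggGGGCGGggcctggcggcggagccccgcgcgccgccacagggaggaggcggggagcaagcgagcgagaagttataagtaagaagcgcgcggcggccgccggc

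The MEF2 match of Klf2, CTAAATTTAG, lies at chr8:72318944-72318953. A MEF2 site was found in 2.92% of the 32851 promoters searched over 250 bases, and in 1 of the 8 members whose promoter was matched by symbol (Klf5 and Klf10 were not matched). The Klf2 sequence shown holds 2 GC boxes and that of Klf4 holds 4, of which the first pair share a base. At least 1 GC box was present in 7 of the 8 matched members and in 32.7% of all promoters. The CACCC word, searched on both strands and free to overlap other motifs, was present in 6 of 8 and in 52.0% of all promoters, and in Klf2 it lies past the end of the sequence shown. The letters TGACG, the core of a cAMP response element, were present in 5 of 8 and in 17.8% of all promoters. No member held the palindromic glucocorticoid response element, which was found in 0.387% of all promoters. Median GC content was 71.4% in the members and 52.4% in all promoters, so that GC-rich words are frequent in these windows. A match is only a match of letters, and binding was not measured.

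Among the factors of endothelium and macrophages, Klf2 was the most abundant Kruppel-like factor in every lung. In control lungs it was at 231 TPM in the lowest lung, 411 TPM at the median and 612 TPM in the highest, and in knockout lungs it was at 186, 232 and 260.4 TPM. The lowest control lung, replicate 1, lay within the knockout range, the other 5 lay above every knockout lung, and 3 knockout lungs lay below every control lung. The log2 fold change was -0.89 (SE 0.21, 95% interval -1.34 to -0.43), with an adjusted p of 0.0961 in limma and a p of 0.00866 in the exact permutation test. The mean TPM was lower by 47.8%. Without IL-10 B-WT replicate 1 the log2 fold change was -1.05 (limma, adjusted p = 0.00734), and without any other single lung the adjusted p was above 0.05.

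Klf4, the close relative of Klf2 that shares many of its endothelial targets and is also known from monocyte differentiation, was lower by estimate in knockout lungs too. It was at 66.5 TPM in the lowest, 104 TPM at the median and 151 TPM in the highest control lung, and at 53.9, 64.5 and 79.5 TPM in knockout lungs. Again IL-10 B-WT replicate 1 was the lowest of its group, the other 5 lay above every knockout lung, and 3 knockout lungs (replicates 1, 3 and 4, against 2, 3 and 4 for Klf2) lay below every control lung. The log2 fold change was -0.69 (SE 0.19, 95% interval -1.10 to -0.28), with an adjusted p of 0.164 in limma and a p of 0.00866 in the exact permutation test. Without IL-10 B-WT replicate 1 it was -0.82 (limma, adjusted p = 0.0239).

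Klf2 and Klf4 varied together. With the genotype mean removed, Klf4 was the gene most like Klf2 among the 11168 other tested genes with a mean of at least 5 TPM, with a Pearson r of 0.93 over 12 lungs. Within control lungs r was 0.97 and Spearman's rho 0.83, and within knockout lungs r was 0.71 and rho 0.66 (6 lungs each). These are descriptions: all genes of a lung share 1 library and 1 scaling total, and a highest r is picked from many. The next genes in likeness to Klf2 were Inafm1 (r = 0.88), Hilpda, a lipid droplet protein induced by hypoxia (r = 0.82), H2ac19, a histone gene (r = 0.82), and Camp, the neutrophil granule protein cathelicidin (r = 0.82). The gene that followed Klf2 for Klf4 was Zfp862-ps (r = 0.86).

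Whether the genotypes differed more in Klf2 than in Klf4 or Klf6 was examined on ratios within each lung. The other members were not compared in this way, among them Klf15, whose estimate (-0.99) was larger than that of Klf2. The log2 ratio of Klf2 to Klf4 was 1.96 ± 0.12 in control and 1.76 ± 0.14 in knockout lungs (SD, n = 6), a difference of -0.20 (exact permutation test, p = 0.0346, 0.0498 after Benjamini-Hochberg adjustment over 3 such differences). That p was above 0.05, between 0.0541 and 0.0693, without any 1 of IL-10 B-WT replicates 2, 4, 5 and 6 and IL-10 B-KO replicates 2, 3 and 6, with differences between -0.20 and -0.16. Set against Klf6, the third most abundant member, the log2 ratio of Klf2 was 3.02 ± 0.81 and 2.11 ± 0.51 (SD, n = 6), a difference of -0.92 (exact permutation test, p = 0.0498, adjusted 0.0498). This p too was above 0.05, between 0.0606 and 0.0909, without any 1 of IL-10 B-WT replicates 2 to 6 and IL-10 B-KO replicates 3 to 6, with differences between -0.96 and -0.77. With 0.1 in place of 1 added to the TPM, the exact permutation p for Klf6 was 0.0519. With lungs blocked by replicate number it was 0.0938 for Klf4 and for Klf6.

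Since Klf2 and Klf4 are abundant in endothelium, their levels were set beside 14 endothelial genes. In bulk lung, fewer cells of a type and less RNA per cell cannot be told apart. Of the 14 endothelial genes, 13 were lower by estimate in knockout lungs (median log2 fold change -0.17), against 36.8% of all genes tested. In limma 0 passed an adjusted p of 0.05, and 2 reached an unadjusted p of 0.05 or less, both lower, against 5.71% of all genes. The summed level of the 14 genes ranged from 3071 to 7116 TPM in control lungs (median 5676) and from 3109 to 6317 TPM in knockout lungs (median 3827). None of the 14 was at 0 throughout. The log2 ratio of Klf2 to the mean of this list was 0.87 ± 0.27 in control and 0.24 ± 0.33 in knockout lungs (SD, n = 6), a difference of -0.63 (exact permutation test, p = 0.00649, adjusted 0.0195). All but 1 of the knockout lungs lay below every control lung in this ratio, and the p was at most 0.0152 without any single lung. IL-10 B-KO replicate 2 had endothelial genes at 6317 TPM, within the range of control lungs, and Klf2 at 226 TPM. This lung stood apart from the other knockout lungs, whose endothelial sums were 3109 to 4170 TPM. Its airway genes summed to 105262 TPM, against 8464 to 30466 TPM, and its macrophage genes to 244 TPM, against 878 to 1999 TPM. IL-10 B-WT replicate 1 had the lowest endothelial sum of all 12 lungs, 3071 TPM, and Klf2 at 231 TPM.

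**Figure D2:**
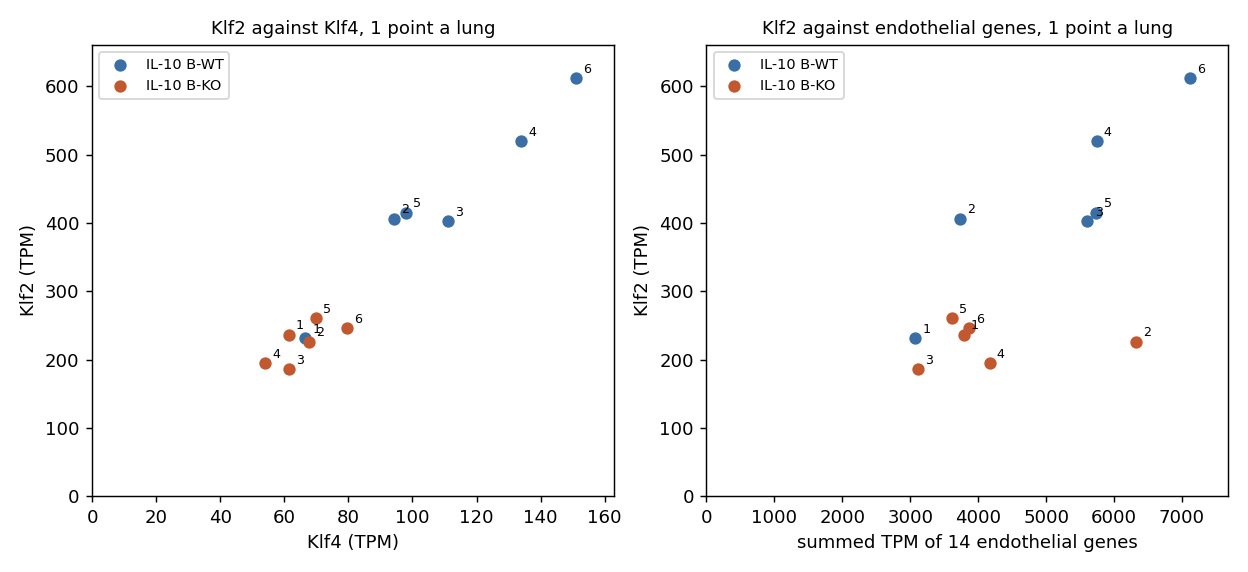
Klf2 against Klf4 (left) and against the summed level of 14 endothelial genes (right), in TPM on linear axes, with 1 point per lung numbered by replicate. For both genes 5 of 6 IL-10 B-WT lungs lie above every IL-10 B-KO lung, and IL-10 B-KO replicate 2 has Klf2 at 226 TPM beside an endothelial sum of 6317 TPM.

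Genes of other cell populations were set beside the members in the same way. By estimate 36.8% of all genes tested were lower and 63.2% higher. At an unadjusted limma p of at most 0.05 were 5.71% lower and 6.83% higher. The 8 pericyte genes were all lower by estimate, with a median log2 fold change of -1.34 and sums of 349 to 801 TPM in control and 93.7 to 411 TPM in knockout lungs, and Pdgfrb, Trpc6 and Notch3 fell (limma, adjusted p = 0.0456, 0.0195 and 0.0236). Leaving out 1 lung raised the adjusted p above 0.05 for Pdgfrb in all cases but IL-10 B-WT replicates 1 and 3 (up to 0.120), for Trpc6 with IL-10 B-KO replicates 1 and 5 (up to 0.0580), and for Notch3 with IL-10 B-WT replicates 2, 4, 5 and 6 and IL-10 B-KO replicates 1, 3 and 5 (up to 0.0694). Measured against pericyte genes in place of endothelial genes, the ratio of Klf2 differed by 0.36, in the other direction (exact permutation test, p = 0.253). The 9 B cell genes, from cells that also express Klf2, were all lower by estimate, with a median of -1.90, sums of 71.6 to 838 TPM in control and 10.9 to 85.9 TPM in knockout lungs, and a fall of Cd79a (limma, adjusted p = 0.0222). The call of Cd79a was lost without control replicate 5 or any 1 of knockout replicates 1, 3 and 5 (adjusted p 0.0579 to 0.0635 in limma). Cd79a is also called mb1, the gene for which the Cre of the knockout mice is named. The part of the Cre allele in its fall was not tested. The 10 macrophage genes and the 8 neutrophil genes were all higher by estimate, with medians of 1.38 and 1.72, and 0 of either list passed an adjusted p of 0.05 in limma (6 and 7 reached an unadjusted p of 0.05 or less). Macrophage sums were 97.5 to 1842 TPM and 244 to 1999 TPM, and neutrophil sums were 289 to 2481 TPM and 1061 to 7558 TPM, in control and knockout lungs in that order, and no gene of these 4 lists was at 0 in all knockout lungs. Among the other lists, the 7 smooth muscle genes were all lower by estimate (median -0.89, 4 at an unadjusted p of 0.05 or less) and the 7 alveolar type 2 genes all higher (median 0.74, 4 at that level). Of 6 airway genes 5 were lower (median -0.83), and all 6 erythroid genes were lower (median -1.24). The erythroid genes summed to 2958 to 96328 TPM in control and 3523 to 22585 TPM in knockout lungs. Highest were IL-10 B-WT replicates 5 and 4, at 96328 and 76346 TPM. Fibroblast, T cell, alveolar type 1 and lymphatic endothelial genes had medians between -0.08 and 0.05, and 0 genes of these 8 lists passed an adjusted p of 0.05 in limma (0 to 4 a list reached an unadjusted p of 0.05 or less). The part of these populations in the levels of Klf2, Klf4 and the other members was not tested.

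The factors of the early injury and TGF-beta response are Klf10 and Klf6. Klf10 (ENSMUSG00000037465, chr15:38291463-38300706, minus strand, 4 exons), known as a TGF-beta-inducible early gene, was at 21.3 TPM in the lowest, 26.8 TPM at the median and 32.4 TPM in the highest control lung. In knockout lungs it was at 33.3, 45.6 and 55.0 TPM, so that the groups did not overlap. Klf10 was the 1 of the 10 members without overlap, and groups did not overlap in 1.02% of all genes tested (0.0924% counting those higher in knockout lungs). The log2 fold change was 0.69 (SE 0.16, 95% interval 0.33 to 1.04), with an adjusted p of 0.0992 in limma, and the exact permutation p of 0.00216 was the smallest that 6 lungs against 6 can give. Without IL-10 B-WT replicate 1 it was 0.74 (limma, adjusted p = 0.0374). Klf10 was most like Bdkrb2, a bradykinin receptor (r = 0.90), and Git1 (r = 0.87), by the same measure as above.

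Klf6 (ENSMUSG00000000078, chr13:5861482-5870394, plus strand), an early-response factor of injured epithelium, endothelium and myeloid cells, averaged 51.8 ± 15.6 and 53.7 ± 18.6 TPM (SD, n = 6). Its 95% interval, -0.50 to 0.56 on the log2 scale, covers both directions (limma, adjusted p = 0.964). The highest lungs were IL-10 B-WT replicate 1 at 79.9 TPM and IL-10 B-KO replicate 5 at 81.0 TPM. Klf6 was most like Fstl3 and Hbegf (r = 0.98 each), the latter a growth factor of the EGF family. Klf13 (ENSMUSG00000052040, chr7:63886351-63938915, minus strand), which takes part in T cell chemokine expression, varied with Klf6 (r = 0.91 over 12 lungs, 0.90 within control and 0.93 within knockout lungs). It averaged 33.99 ± 9.99 and 45.6 ± 13.9 TPM (SD, n = 6), a log2 fold change of 0.41 (95% interval -0.07 to 0.89, limma adjusted p = 0.460, and 0.26 by quantile normalization), and was most like Slc39a14, a metal transporter (r = 0.99), and Gnai3 (r = 0.97).

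The factors downstream of glucocorticoids were lower by estimate in knockout lungs, and neither passed an adjusted p of 0.05 in limma with equal weights. Klf15 (ENSMUSG00000030087, chr6:90462576-90475238, plus strand), which acts in amino acid and lipid metabolism, was the most variable member. It was at 4.52, 19.3 and 29.6 TPM in the lowest, the median and the highest control lung and at 3.27, 6.43 and 18.4 TPM in knockout lungs. Of the control lungs, 4 lay above every knockout lung, and replicates 1 and 5 lay among the knockout lungs. The log2 fold change was -0.99, with a 95% interval of -2.03 to 0.05 (limma, adjusted p = 0.418, exact permutation p = 0.0996). With array quality weights, which give the more variable libraries less influence, it was -1.56 (limma, adjusted p = 0.0365). Klf9 (ENSMUSG00000033863, chr19:23141226-23168134, plus strand), a repressor induced by glucocorticoids and thyroid hormone, averaged 31.0 ± 11.4 and 24.1 ± 6.86 TPM (SD, n = 6). Its log2 fold change was -0.32 (95% interval -0.86 to 0.23, limma adjusted p = 0.582). Leaving out IL-10 B-WT replicate 6 gave -0.18, leaving out IL-10 B-WT replicate 1 gave -0.48, and array quality weights gave -0.63 (limma, adjusted p = 0.811, 0.198 and 0.0934). Klf9 and Klf15 varied together (r = 0.82 over 12 lungs, 0.92 within control and 0.65 within knockout lungs). Klf15 was most like Pgrmc1 and Fmo2, a flavin monooxygenase of lung (r = 0.96 each), and Klf9 was most like Endog (r = 0.94) and Gm10575 (r = 0.93).

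Of the remaining members, Klf7 (ENSMUSG00000025959, chr1:64029447-64122282, minus strand), known for its part in neuronal development, was at 12.8 to 24.9 TPM in control lungs (median 17.9) and at 8.17 to 18.8 TPM in knockout lungs (median 13.7). The log2 fold change was -0.44 (95% interval -0.88 to 0.01, limma adjusted p = 0.406, exact permutation p = 0.0519). It was most like Plpp1 (r = 0.93) and Pecam1, an endothelial adhesion molecule (r = 0.91). Klf3 (ENSMUSG00000029178, chr5:64803388-64832901, plus strand), a repressor that recruits CtBP, averaged 33.4 ± 6.84 and 39.8 ± 8.20 TPM (SD, n = 6), a log2 fold change of 0.24 (95% interval -0.15 to 0.63, limma adjusted p = 0.557), and was most like Marchf7 (r = 0.95). For Klf3 the log2 fold change was 0.16 without IL-10 B-WT replicate 5, 0.11 by quantile normalization, 0.14 by median centring and 0.13 with array quality weights. Klf5 (ENSMUSG00000005148, chr14:99298691-99315036, plus strand), a factor of alveolar and airway epithelium, averaged 9.53 ± 2.04 and 9.97 ± 3.20 TPM (SD, n = 6). The interval of its difference was -0.44 to 0.51 (limma, adjusted p = 0.954), and it was most like Bspry (r = 0.97) and Ift88, a ciliary transport protein (r = 0.96). Klf3, Klf7, Klf9 and Klf13 overlap other annotated genes, and whether reads were assigned by strand is not given in the sources used here.

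**Figure D3:**
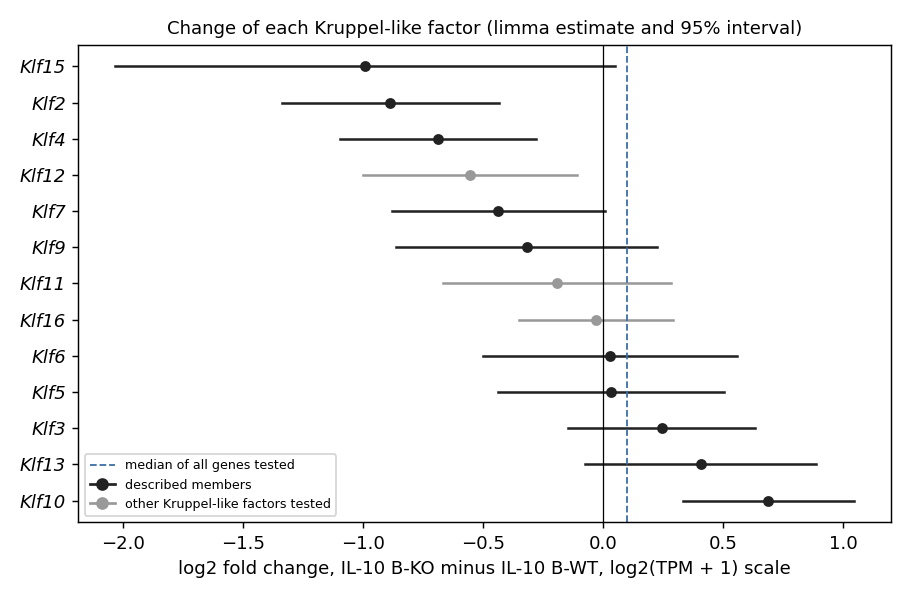
Log2 fold change of each Kruppel-like factor, IL-10 B-KO minus IL-10 B-WT, as the limma estimate with its 95% interval on the log2(TPM + 1) scale. Black marks are the 10 members and grey marks other Kruppel-like factors that were tested, and the dashed line is the median of all genes, 0.10. The intervals of Klf2 and Klf4 lie below 0 and that of Klf10 lies above it, with adjusted p-values between 0.0961 and 0.164.

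Summed over the 10 members, the lungs held 763 ± 166 TPM of Kruppel-like factor transcripts in control and 529 ± 61.7 TPM in knockout mice (SD, n = 6). Klf2 made up 55.7 ± 6.99% of that sum in control and 42.7 ± 4.79% in knockout lungs. Klf4 made up 14.1 ± 1.24% and 12.4 ± 1.15%. The share of Klf10 was 3.67 ± 1.17% and 8.25 ± 0.64%, with 5.82% in the highest control and 7.32% in the lowest knockout lung. Without Klf2 and Klf4 the other 8 members summed to 223 ± 33.98 and 238 ± 47.0 TPM. Shares of a sum are not independent of each other, and no test was made on them.

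In order of mean level, control lungs had Klf2, Klf4, Klf6, Klf13, Klf3, Klf9, Klf10, Klf7, Klf15 and Klf5, and knockout lungs had Klf2, Klf4, Klf6, Klf13, Klf10, Klf3, Klf9, Klf7, Klf5 and Klf15. Klf10 was thus the seventh in the one and the fifth in the other. Klf2 and Klf4 were the only neighbours in this order whose ranges did not overlap, in both genotypes, and Klf2 was above Klf4 in all 12 lungs. The ranges of the other neighbours overlapped.

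**Figure D4:**
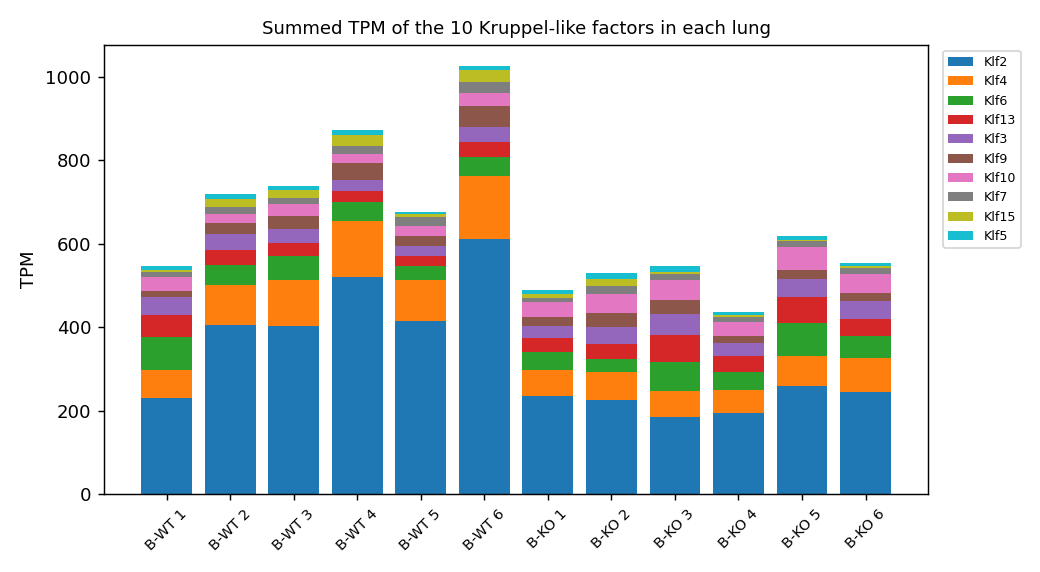
Summed TPM of the 10 Kruppel-like factors in each lung, stacked by gene on a linear axis from 0. The bar of IL-10 B-WT replicate 1 (547 TPM) lies within the range of the IL-10 B-KO lungs (437 to 619 TPM), and the other IL-10 B-WT lungs reach 677 to 1025 TPM.

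The rest of the family was given by list. Of 7 other Kruppel-like factors, Klf11, Klf12 and Klf16 were tested and the other 4 were too low. Klf12, a repressor, was at a median of 4.37 TPM in control and 2.56 TPM in knockout lungs, with a log2 fold change of -0.55 (limma, unadjusted p = 0.0188, adjusted p = 0.328), while the adjusted p of Klf11 and Klf16 was 0.709 and 0.943, and 0 of the 3 passed the adjusted threshold (1 at an unadjusted p of at most 0.05). Of 9 members of the related Sp family, 6 were tested and 1 fell. This was Sp6, a factor known from tooth and limb epithelium, at 2.74 to 3.92 TPM in control and 0.47 to 2.02 TPM in knockout lungs, a log2 fold change of -1.04 (SE 0.20, limma adjusted p = 0.0330) without overlap. Its adjusted p was 0.0546 to 0.0939 without any 1 of IL-10 B-WT replicates 2 to 6 and IL-10 B-KO replicates 1, 3 and 6 (log2 fold changes -1.08 to -0.93). Sp1, Sp2, Sp3, Sp4 and Sp5 did not pass the threshold.

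None of the listed genes that control Klf2 and Klf4 in endothelium passed a test. The list of 11 holds the flow sensor Piezo1, the kinase cascade Map3k3, Map2k5 and Mapk7, the factors Mef2a, Mef2c and Mef2d, and the cerebral cavernous malformation genes Krit1, Ccm2, Pdcd10 and Heg1 that restrain the cascade. In limma 0 of the 11 passed an adjusted p of 0.05 and 0 reached an unadjusted p of 0.05, with a median log2 fold change of 0.13, 2 lower and 9 higher. Piezo1 averaged 69.1 ± 23.0 and 86.9 ± 13.4 TPM (SD, n = 6), with a log2 fold change of 0.38 (0.23 without IL-10 B-WT replicate 5). Mef2c averaged 12.8 ± 11.5 and 6.98 ± 1.98 TPM (SD, n = 6), with -0.56. IL-10 B-WT replicate 2 was at 36.0 TPM, and the other control lungs averaged 8.17 ± 1.48 TPM (SD, n = 5), with a log2 fold change of -0.22 when it was left out. Of 11 cofactors and ubiquitin ligases that act with Kruppel-like factors, such as Ctbp1 and Wwp1, 0 passed either threshold in limma (median 0.12).

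The 12 genes that Klf2 and Klf4 are known to induce in endothelium were 9 lower and 3 higher by estimate, with a median of -0.25, and 0 passed the adjusted threshold in limma. Of all genes tested, 36.8% were lower by estimate, with a median of 0.10, and 12.5% had an unadjusted limma p of at most 0.05. At that p in this list were 1 lower and 1 higher. The lower one was Nrp1, a VEGF and semaphorin co-receptor, at 81.0 ± 26.4 and 49.6 ± 15.2 TPM (SD, n = 6), with a log2 fold change of -0.69 in limma (unadjusted p = 0.0130, adjusted p = 0.304). The higher one was Nos3, the endothelial nitric oxide synthase, at 12.3 ± 4.11 and 20.6 ± 8.28 TPM (SD, n = 6), with a log2 fold change of 0.68 in limma (unadjusted p = 0.0258, adjusted p = 0.350). The known targets of Klf2 in endothelium therefore had estimates in both directions.

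The 12 inflammatory genes that Klf2 is known to repress, adhesion molecules, cytokines and procoagulant factors, gave 11 tested genes, all 11 higher by estimate, with a median of 0.98 against 0.10 over all genes. For Tnf the mean TPM was the higher in control lungs, 30.2 against 26.7. The list of 12 summed to 1288 TPM in IL-10 B-WT replicate 1, to 199 to 509 TPM in the other control lungs and to 344 to 1406 TPM in knockout lungs. In limma 0 passed the adjusted threshold and 1 reached an unadjusted p of 0.05 or less, Ccl2, a monocyte chemokine, at 0.95 to 107 TPM in control and 2.67 to 258 TPM in knockout lungs (log2 fold change 2.43, adjusted p = 0.381). Many of these genes are also expressed by macrophages and neutrophils, whose genes were higher by estimate in the same lungs. Of the 6 genes of lymphocyte trafficking that Klf2 governs, such as S1pr1 and Ccr7, 3 were lower and 3 higher (median 0.02), and 0 passed either threshold in limma.

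For the signals that induce other members, the lists gave mixed directions. Of 9 glucocorticoid-responsive genes, 5 were lower and 4 higher and 0 passed the adjusted threshold in limma, with 1 lower and 3 higher at an unadjusted p of at most 0.05. Fkbp5, a chaperone induced by glucocorticoids, was at 3.03 to 24.8 and 17.3 to 87.1 TPM (log2 fold change 1.81, limma adjusted p = 0.154, or 0.0382 if IL-10 B-WT replicate 1 is left out), the opposite sign to the estimates of Klf9 and Klf15. The receptor Nr3c1 was at 21.2 to 30.6 and 15.6 to 18.2 TPM, without overlap (log2 fold change -0.47, limma adjusted p = 0.161). Of 9 genes of the TGF-beta pathway, 3 were lower and 6 higher, and 0 passed either threshold in limma, the smallest p being that of the receptor Tgfbr1 (log2 fold change 0.64, limma adjusted p = 0.408). Of 17 immediate early genes, which respond to injury and to tissue handling as Klf2, Klf4, Klf6 and Klf10 can, 10 were lower and 7 higher with a median of -0.04, and 0 passed the adjusted threshold in limma (4 lower and 2 higher at an unadjusted p of at most 0.05). Nr4a2, an orphan nuclear receptor, had the smallest p, at 3.55 ± 0.67 and 1.96 ± 0.65 TPM (SD, n = 6) with a log2 fold change of -0.63, and Ier3 was at 136 ± 68.5 and 266 ± 128 TPM (SD, n = 6) with 0.94.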

How the data were processed

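Total RNA of 12 lungs was sequenced, 1 library per mouse. The authors deposited 1 table of TPM per gene. Per the labels, fastp, HISAT and RSEM were used with GRCm38.p5, and no versions were named. TPM keep no read depth, so that no counting error could be given, and genes that take up much of a library depress the values of the rest. Groups were taken from the genotype labels, and all 12 columns were used.

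Here, log2(TPM + 1) of genes with at least 1 TPM in at least 6 libraries was fitted with limma 3.58.1 in R 4.3.3 (trend, genotype as the only term), with Benjamini-Hochberg adjustment. The study's methods name several tools and a fold of change, and the adjusted p alone was used as the threshold here. Single values were compared by exact permutation tests in Python 3.11.15 with NumPy 2.4.6. The limma fit was first tested on simulated data. The members and gene lists were chosen with earlier results of these data known. Named were all members, the 4 or fewer genes of smallest p in pathway lists, genes past the threshold, and the genes of highest r (5 for Klf2, 2 for each other member), of which 1 is not reported here. Gene coordinates are from GENCODE M21 (GRCm38). The 14 endothelial genes were averaged as log2(TPM + 1) for ratios. As alternatives, the pseudocount was set to 0.1, the filter was dropped or replaced by a mean of 5 TPM or more, and libraries were rescaled (without immunoglobulin genes, by quantiles, by their median, or, added after seeing the data, without globin and erythroid genes), weighted, blocked by replicate number or omitted singly.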

Additional observations from a re-analysis of the deposited data

How the results depend on the processing

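Over 21 alternatives Klf2 kept its direction, with log2 fold changes of -1.07 to -0.77 and adjusted p-values of 0.00734 to 0.265 in limma. With array quality weights, Klf2 (-1.01), Klf4, Klf10 and Klf15 had an adjusted p of at most 0.05, 4 members in all, and 6 were at or below an unadjusted 0.05 (24.9% of all genes), against 5 after rescaling without immunoglobulin genes (10.9% of all genes). Leaving out 1 library gave -1.05 to -0.77 for Klf2, 0 to 3 members past the adjusted threshold (3 without IL-10 B-WT replicate 1) and 3 to 7 past the unadjusted one (7 without that library, 5 without IL-10 B-KO replicate 2, where 25.2% and 18.8% of all genes passed). Klf5 and Klf6 turned sign when rescaled without immunoglobulin genes (-0.017 and -0.024) or without globin and erythroid genes (-0.0064 and -0.014), with quantile normalization (-0.058 and -0.13), median centring (-0.073 and -0.077) or array weights (-0.18 and -0.025), and ranged from -0.089 to 0.14 and from -0.10 to 0.17 with 1 library left out. The median of all genes was 0.10, and -0.0085 after median centring and -0.0081 with array weights, where Klf2 remained at -0.99 and -1.01.

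The 79 genes past the adjusted threshold became 8 without a filter, in which 31629 genes are tested, 28 without immunoglobulin genes, 44 by quantile normalization, 39 by median centring, 669 with weights and 45 with the replicate block. With 1 library left out they were 19 to 761: 761, 39, 25 and 36 without IL-10 B-WT replicates 1, 4, 5 and 6, and 19, 133, 34, 19 and 47 without IL-10 B-KO replicates 1, 2, 3, 5 and 6. The cause was not tested.

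The genotypes share replicate numbers 1 to 6, but the deviations of same-numbered lungs correlated at -0.29 to 0.05, so that the numbers were not taken as pairs. With the replicate block the differences of Klf2 from Klf4 (-0.20) and from Klf6 (-0.92) had an exact p of 0.0938, and with a pseudocount of 0.1 the latter (-0.92) had 0.0519. With 1 library left out they were -0.23 to -0.16 and -1.22 to -0.77, and the difference from the endothelial list was -0.71 to -0.53. With pericyte genes, chosen after seeing the data, that difference was 0.36. TPM without read numbers and 6 lungs a genotype limit what can be seen: the 95% intervals of Klf5 and Klf6 span about 1 log2 unit, and the labels name no batch, so that batches could not be examined.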
